A study of Mus musculus with 24 samples.

Results

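Type I interferon-stimulated genes were followed in isolated hepatocytes of young and old mice on normal diet (ND) or high-fat diet (HFD). The genes were taken by name from a list of 43, and every one of these names had a row among the table's 55421 genes. Of these, 42 had enough counts to be among the 13583 genes tested. The exception was Trex1, a DNA exonuclease that limits sensing of cytosolic DNA, which had 0 counts in all 24 mice. All of its 1147 exonic bases lie in exons of Atrip on the same strand of chromosome 9 (109057933 to 109059734), so its reads cannot be assigned to it by gene counting.

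The samples were polyA RNA of hepatocytes from 24 male mice, isolated by a 2-step perfusion of the liver, with 6 mice in each group. Young ND and young HFD mice were C57BL/6N and 6 months old by the sample labels. Old ND and old HFD mice were C57BL/6J and 24 months old, so the comparisons called age here are equally comparisons of substrain, and these cannot be told apart. Other ages are given in the text of the study, and these differ between its sections. The HFD supplied 60% of energy as fat and each diet was fed for 9 weeks. For ND the labels name a Teklad chow, which differs from the control diet named in the methods. No transgene or knockout was carried by any group. Each group had 3 mice in either of 2 batches, other than old ND, with 2 in the first and 4 in the second. Total counts ran from 9200332 to 22185069 per mouse, with every old HFD mouse below every other mouse.

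Type I interferons are secreted when cells sense foreign or misplaced nucleic acid. They bind a receptor made of Ifnar1 and Ifnar2, whose kinases Jak1 and Tyk2 activate a transcription factor that contains Stat2 and Irf9. This factor binds the interferon-stimulated response element (ISRE) in the promoters of its target genes, many of which encode proteins that block virus replication or amplify the signal. In liver, hepatocytes and the resident and infiltrating immune cells all respond to interferon, so a bulk preparation can hold target transcripts from several cell types.

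The ISRE is the sequence by which such genes are known to respond, and promoters are shown here for the members in which its core was found. Of the 43 members, 31 were in RefSeq's table of gene starts for GRCm38.p6. The ISRE core, GAAA followed by any 2 bases and a second GAAA, was searched on both strands in the 250 bases before each start. It was found in 10 of the 31 members (32.3%), against 936 of 27025 genes of the table (3.46%). The core of the GAS element bound by interferon-gamma signaling, TTCNNNGAA, which reads the same on both strands, was found in 5 of 31 members (16.1%) and in 8.13% of genes. Promoters of Dhx58, Zbp1, Oas2, Mx1, Mx2, Usp18, Parp9, Parp14, Ifi27, Ifi27l2a, Rtp4 and Tor3a were not analysed here. A match is a description of the letters and not evidence of binding.

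The 250 bases before the start are given for Isg15, the ubiquitin-like modifier, and for 3 members of the Ifit cluster, which encode proteins that bind foreign RNA and whose fold changes are described below. They read 5′ to 3′ on the gene's strand, with the ISRE core in capitals on whichever strand it occurred (as its reverse complement where it was on the other strand). Overlapping matches are joined.
Isg15, chr4:156200819-156201068, minus strand: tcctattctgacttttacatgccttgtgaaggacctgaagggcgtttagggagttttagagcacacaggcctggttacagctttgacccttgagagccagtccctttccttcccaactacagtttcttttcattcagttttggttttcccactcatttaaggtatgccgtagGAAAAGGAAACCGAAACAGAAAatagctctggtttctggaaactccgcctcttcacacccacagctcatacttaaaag
Ifit1, chr19:34640639-34640888, plus strand: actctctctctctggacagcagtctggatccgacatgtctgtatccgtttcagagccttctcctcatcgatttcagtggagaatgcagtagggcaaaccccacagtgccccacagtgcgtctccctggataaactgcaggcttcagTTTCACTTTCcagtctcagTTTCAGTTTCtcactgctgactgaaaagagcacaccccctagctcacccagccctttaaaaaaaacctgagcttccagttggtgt
Ifit3, chr19:34583279-34583528, plus strand: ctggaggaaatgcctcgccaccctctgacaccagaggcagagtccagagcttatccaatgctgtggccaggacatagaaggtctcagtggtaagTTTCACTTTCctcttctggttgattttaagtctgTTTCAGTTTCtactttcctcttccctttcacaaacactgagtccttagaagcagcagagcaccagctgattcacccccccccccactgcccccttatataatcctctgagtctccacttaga
Ifit3b, chr19:34607707-34607956, plus strand: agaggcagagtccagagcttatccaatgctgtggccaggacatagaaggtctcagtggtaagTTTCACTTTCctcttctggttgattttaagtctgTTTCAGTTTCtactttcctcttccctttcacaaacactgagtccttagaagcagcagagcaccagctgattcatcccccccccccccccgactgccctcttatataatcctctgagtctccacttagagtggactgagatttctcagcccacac

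In Isg15, 3 overlapping cores began 78, 72 and 66 bases before the start. In Ifit1 a pair of cores began 104 and 85 bases before it. Ifit3 and Ifit3b, which lie side by side on chromosome 19, held the same pair of cores and were identical at 188 of 218 bases aligned without gaps (86.2%). Their transcripts also share sequence, since 51.2% of the 50-base words of Ifit3 transcripts occur in those of Ifit3b. Reads from the shared sequence may not be assignable to either gene, so their separate values are uncertain.

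For the other 6 members with the core, only the core and the bases around it are shown, to compare the spacing and flanks.
Bst2, chr8:71537572-71537617, minus strand: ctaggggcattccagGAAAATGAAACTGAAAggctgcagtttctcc
Oas1a, chr5:120907526-120907560, minus strand: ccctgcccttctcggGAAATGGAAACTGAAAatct
Oas3, chr5:120777710-120777749, minus strand: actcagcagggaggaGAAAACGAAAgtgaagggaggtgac
Rsad2, chr12:26456548-26456587, minus strand: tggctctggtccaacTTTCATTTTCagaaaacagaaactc
Stat2, chr10:128270261-128270300, plus strand: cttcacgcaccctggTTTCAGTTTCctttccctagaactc
Trim30a, chr7:104465205-104465244, minus strand: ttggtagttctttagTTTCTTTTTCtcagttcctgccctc

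The cores of Bst2 and Oas1a were doubled and overlapping, and the others were single. The core of Oas1a, an enzyme that makes the 2-5A activator of RNase L, began 20 bases before the start, and that of Stat2 lay farthest away, 222 bases before it. As a description, the 10 members with a core had a median log2 fold change of 3.20 between old HFD and young ND, and the 20 tested members of the table without one had 1.16. The corresponding medians were 1.98 and 0.84 between old ND and young ND and 1.02 and 0.40 between old HFD and old ND. Both sets held genes with high and low fold changes, and in old HFD against young ND the range was 0.52 to 4.27 with a core and 0.07 to 4.84 without.

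The members lay on 16 chromosomes, with several in clusters. The 4 Ifit genes are on chromosome 19, the 5 Oas and Oasl genes on chromosome 5, and 6 members including Mx1, Mx2, Parp9, Dtx3l and Parp14 on chromosome 16. Neighbours such as Rsad2 and Cmpk2 on chromosome 12 are therefore not independent of each other in position. Parp9 and Dtx3l overlap on opposite strands by 9.4% and 8.0% of their exonic bases. Strand handling is not given in the sources used here, so reads in that overlap cannot be told apart.

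Levels between genes were compared as FPKM, which is per length. In young ND the highest mean among the members was that of Bst2, encoding the virus tether tetherin, at 44.1 FPKM, followed by Ifi27 at 12.2 FPKM. In old HFD these remained the leading members, with Bst2 at 91.0 and Ifi27 at 62.4 FPKM. The FPKM and the counts did not rank the other members alike. Rtp4 averaged 0.066 FPKM in young ND at 6.47 CPM, whereas Isg15 averaged 6.15 FPKM at 3.95 CPM, so no order of the lower members is given. The cause of this difference between the deposited tables was not tested.

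The mean over the 43 members in log2 CPM (counts scaled to library size, log2 scale) was lowest in young ND and varied most among old mice. In young ND it was lowest at 2.21, with a median of 2.43 and a highest of 2.66. In young HFD the lowest was 3.09, the median 3.19 and the highest 3.42, so every young HFD mouse was above every young ND mouse. In old ND the lowest was 2.77, the median 3.44 and the highest 4.61. In old HFD the lowest was 3.22, the median 4.43 and the highest 4.90, so old HFD overlapped old ND and young HFD but not young ND. Old ND replicate 3 had the highest level in its group for 31 of the 42 members tested, and old HFD replicates 3 and 2 had the highest for 20 and 14.

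**Figure D1:**
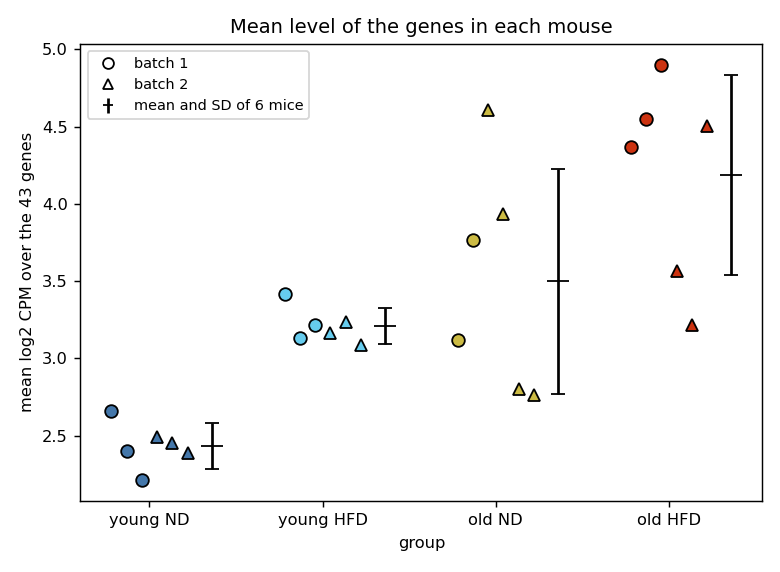
Mean log2 CPM over the 43 genes (vertical axis) for each of the 24 mice, by group, with circles for batch 1, triangles for batch 2, and the mean and SD of 6 mice beside each group. The young ND mice sit between 2.21 and 2.66 and the young HFD mice between 3.09 and 3.42, while old ND spans 2.77 to 4.61 and old HFD 3.22 to 4.90.

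**Figure D2:**
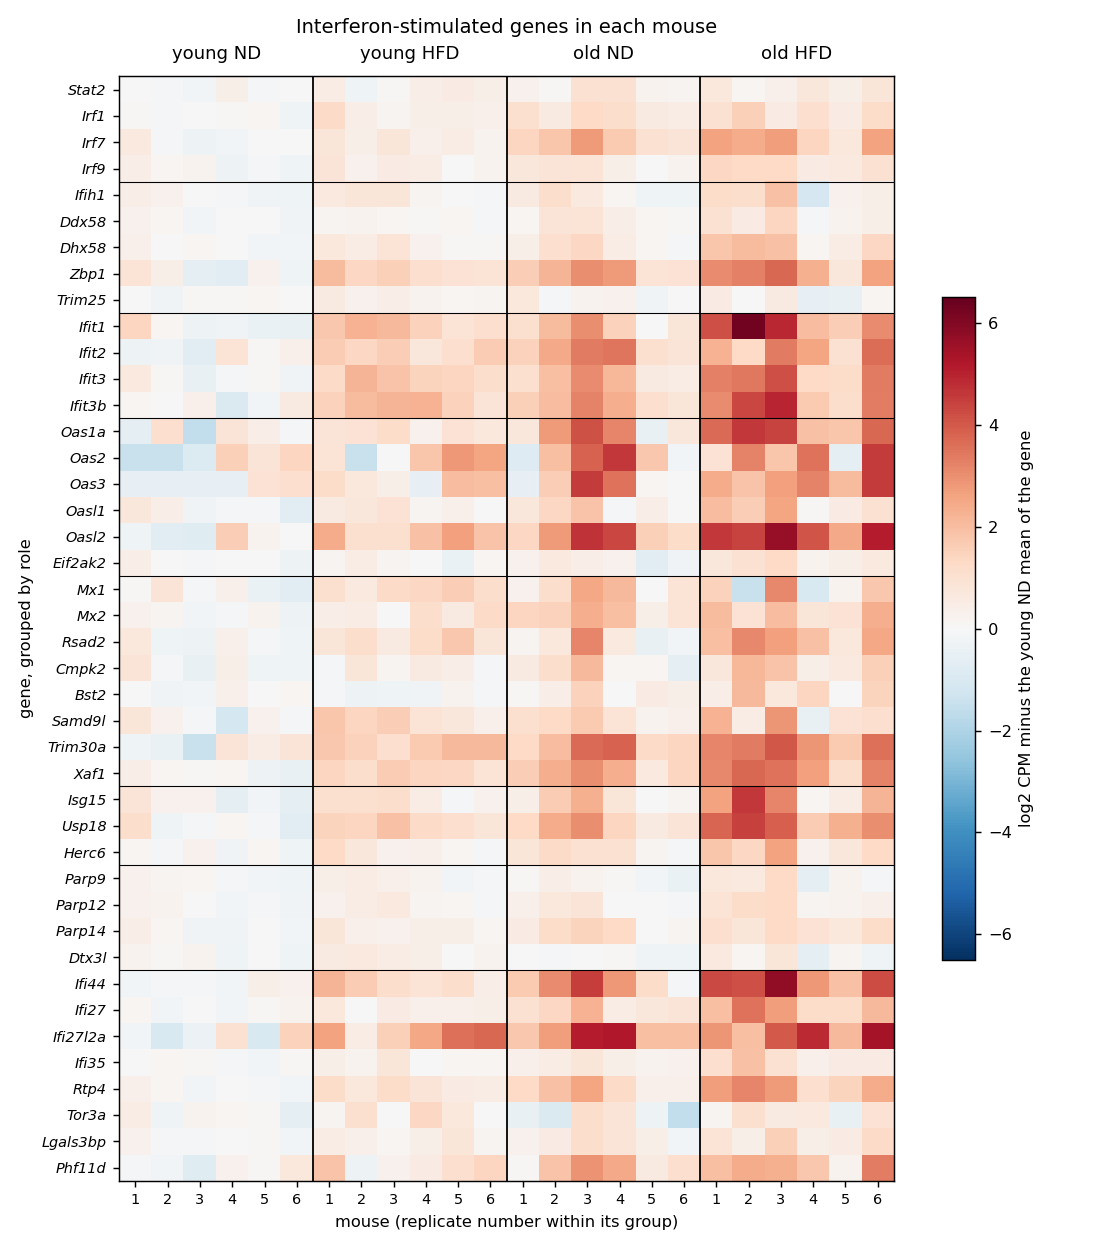
Log2 CPM of each of the 42 tested genes (rows, grouped by role and divided by lines) in each mouse (columns), with the young ND mean of the gene subtracted, in red where higher and blue where lower. Red is deepest in old ND replicates 3 and 4 and old HFD replicates 1, 2, 3 and 6, and the rows of Trim25, Parp9 and Dtx3l are pale throughout.

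The spread of single members followed that of the mean. The median SD of a member's log2 CPM was 0.33 between young ND mice and 0.37 between young HFD mice, but 0.81 among old ND and 0.84 among old HFD mice. Over all tested genes it was 0.24, 0.29, 0.34 and 0.54 in the same order, so the members varied more than the typical gene in every group and by the widest margin in old ND. Among mice of the same group and batch the members moved together, with a positive correlation in 845 of 861 pairs of genes and a median r of 0.58 (24 mice, group and batch means removed). Irf7, the transcription factor that amplifies interferon production, tracked the mean of the other members most closely (r = 0.94). Dtx3l, a ubiquitin ligase that pairs with Parp9, did so least (r = 0.34). These points share libraries and depth.

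Transcripts of immune cells were present in these preparations. The 5 leukocyte markers summed to 0.568 to 9.85 CPM among young ND mice (median 2.67) and to 2.99 to 27.3 CPM among young HFD mice (median 16.2). Among old ND mice the sum ran from 11.7 to 141 CPM (median 23.3), and with HFD at that age from 5.90 to 82.1 CPM (median 22.9). The 8 Kupffer cell and macrophage markers ranged from 1.48 to 65.6 CPM in young ND and from 38.0 to 1030 in old ND, with none of them at 0 in any group as a whole. The 5 hepatocyte markers summed to 42032 to 155909 CPM over all mice, with all 5 detected in every group. In bulk samples, fewer cells of a type and less RNA per cell cannot be told apart. Values of the members with Ptprc or the leukocyte marker mean as a term of the model are therefore given beside each comparison. The leukocyte marker mean is not that of the 5 leukocyte markers alone. It is the mean log2 CPM over these and the markers of Kupffer cells and macrophages, T, NK, B and plasma cells, dendritic cells and neutrophils.

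The first comparison asked what HFD did in young mice. Of the 42 members, 4 rose and 0 fell in young HFD against young ND when p-values of edgeR's quasi-likelihood fit were adjusted over all genes and called below 0.05, where 1.91% of all genes tested rose and 1.59% fell. They were Ifi27l2a, a small interferon-inducible membrane protein, Ifit3b, Trim30a, a ubiquitin ligase that dampens innate signaling, and Xaf1, a proapoptotic partner of Xiap. The median log2 fold change of the members was 0.62, with 41 of 42 above 0, and over all genes it was 0.01. Every young HFD mouse was above every young ND mouse for 8 members, against 1.77% of genes. All 5 leukocyte markers were at an unadjusted p under 0.05, with a median log2 fold change of 2.23, and 0 passed in edgeR. All 8 Kupffer cell and macrophage markers (median 2.06), all 5 sinusoidal endothelial markers (median 1.57) and 4 of 5 stellate cell markers (median 1.56) were at an unadjusted p under 0.05, and 1 of each list rose.

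Ifi27l2a had the highest change (log2 fold change 3.10, SE 0.78, adjusted p = 0.0318 in edgeR), from a median of -2.26 log2 CPM in young ND (lowest -2.96, where 2 mice had 0 counts, highest -0.48) to a median of 0.57 in young HFD (lowest -1.50, highest 1.76). Its groups overlapped. Xaf1 rose by 1.36 (SE 0.35, adjusted p = 0.0351 in edgeR), with no overlap, since young ND mice lay between 0.38 and 1.29 log2 CPM and young HFD mice between 1.74 and 2.51. Trim30a rose by 1.65 (SE 0.46, adjusted p = 0.0465 in edgeR) and Ifit3b by 1.89 (SE 0.53, adjusted p = 0.0463 in edgeR), also without overlap. Other antiviral members were above 0 without passing. Ifit1 gave 1.56 (SE 0.54, adjusted p = 0.0998), Oasl2 1.92 (SE 0.67, adjusted p = 0.0991), and Oas3 2.00 (SE 1.07, adjusted p = 0.292 in edgeR). Zbp1, a sensor of left-handed nucleic acid, gave 1.28 (adjusted p = 0.0673), and Usp18, the protease that removes Isg15 and restrains the receptor, gave 1.26 (adjusted p = 0.0681 in edgeR).

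Among signal transducers, 0 of 4 passed in young mice. Irf9 gave 0.41 (SE 0.13, adjusted p = 0.0748), Irf1 0.53 (SE 0.19, adjusted p = 0.103) and Irf7 0.47 (SE 0.29, adjusted p = 0.379 in edgeR). Isg15 gave 0.66 (SE 0.47, adjusted p = 0.457), and Bst2 was the 1 member below 0, at -0.12 (SE 0.26, adjusted p = 0.851 in edgeR). In the PARP group, of enzymes that attach ADP-ribose, Parp14 and Dtx3l both gave 0.38 and 0 of 4 passed. The count of 4 depended on the fit. It was 11 with DESeq2, where 5.63% of all genes rose, and 30 when only the 12 young mice were fitted, where 10.4% rose. It was 0 in edgeR without a batch term, with 18 members at an unadjusted p under 0.05 and 0.633% of all genes higher. Of 24 fits that each left out 1 mouse, Ifi27l2a was called in 15, Xaf1 in 14, Trim30a in 9 and Ifit3b in 9. In 9 of these fits 0 members were called, those without any 1 of young ND replicates 1 to 5 and young HFD replicates 1, 3, 5 and 6. There 0.504% to 1.21% of all genes rose. With log2 CPM of Ptprc as a term of the edgeR model, 0 members passed, 4 were at an unadjusted p under 0.05, 30 of 42 were above 0 and the median was 0.19. With the mean leukocyte marker level as the term 0 passed, 8 were at an unadjusted p under 0.05, 36 were above 0 and the median was 0.25. In these fits 0.427% and 0.898% of all genes rose.

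The second comparison asked what differed with age on ND. Here 23 members rose and 0 fell, where 7.26% of all genes tested rose and 1.24% fell, with a median log2 fold change of 1.26 and 40 of 42 above 0. The rise covered all 4 Ifit genes, 4 of 6 in the group of Oas genes and PKR (Eif2ak2), and 3 of 4 signal transducers. It covered 1 of 4 in the PARP group and 1 of 5 nucleic acid sensors. In 10 members every old ND mouse was above every young ND mouse, against 2.08% of genes.

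Irf7 was at 3.76 to 4.71 log2 CPM in young ND (median 4.05) and at 4.94 to 6.85 in old ND (median 5.64), so the groups did not overlap. Its log2 fold change was 1.77 (SE 0.30, adjusted p = 0.00249 in edgeR). Xaf1 rose by 2.23 (SE 0.36, adjusted p = 0.00177 in edgeR), from a median of 0.96 to 2.84 log2 CPM, again without overlap. Zbp1 rose by 2.24 (SE 0.40, adjusted p = 0.00318 in edgeR), with the lowest old ND mouse at 2.26 and the highest young ND mouse at 2.27 log2 CPM. Rtp4, a receptor transporter that inhibits viral RNA replication, rose by 1.60 (SE 0.31, adjusted p = 0.00395 in edgeR). It had 2.54 to 3.02 log2 CPM in young ND and 3.04 to 5.28 in old ND.

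Some antiviral members had larger fold changes. Ifi27l2a rose by 3.95 (SE 0.79, adjusted p = 0.00436 in edgeR), Oas3 by 3.37 (SE 1.03, adjusted p = 0.0415), and Oasl2 by 3.22 (SE 0.67, adjusted p = 0.00484). Oas3 had 0 counts in 4 young ND mice, so its fold change depends on the prior count of the fit, and it was called in 14 of 24 fits that left out 1 mouse. Ifit2 rose by 2.49 (SE 0.50, adjusted p = 0.00462), Ifit1 by 1.99 (SE 0.56, adjusted p = 0.0268) and Usp18 by 1.96 (SE 0.40, adjusted p = 0.00462 in edgeR). Ifit1 had 1.43 to 3.31 log2 CPM in young ND (median 1.65) and 1.92 to 4.94 in old ND (median 3.22), so these groups overlapped. Its call held in 18 of 24 fits that left out 1 mouse, and without old ND replicate 3 its log2 fold change was 1.27 and did not pass. Ifit3 went from a median of 1.85 to 3.36 log2 CPM and Ifit3b from -0.15 to 1.54. Parp14 rose by 0.90 (SE 0.20, adjusted p = 0.00775 in edgeR). Its neighbours Dtx3l and Parp9 differed by -0.01 and 0.13, and neither passed.

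Isg15 did not pass in this comparison (log2 fold change 1.43, SE 0.48, adjusted p = 0.0669 in edgeR). It had 1.28 to 2.77 log2 CPM in young ND and 1.97 to 4.25 in old ND. Without single mice its log2 fold change was 0.81 to 1.69, and it was called in 3 of 24 fits. The pair of paralogs Mx1 and Mx2, of a family of dynamin-like GTPases, split at the threshold. Mx2 rose by 1.54 (SE 0.32, adjusted p = 0.00506 in edgeR) without overlap, and Mx1 gave 1.63 (SE 0.68, adjusted p = 0.149). Mx1 is scarce in these libraries, with at most 13 counts in a young ND mouse.

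All 5 leukocyte markers and all 8 Kupffer cell and macrophage markers also rose in old ND against young ND, as did 3 of 5 sinusoidal endothelial and 4 of 5 stellate cell markers. In old HFD against young ND 5, 7, 5 and 3 markers of these lists rose, and the part of the endothelial and stellate markers in the values of the members was not tested. With Ptprc as a term 0 of the 42 members passed, with 5 at an unadjusted p under 0.05 and a median of 0.39, and with the mean leukocyte marker level as a term 0 passed, with 3 at an unadjusted p under 0.05 and a median of 0.28. In these fits 0.0663% and 0.0589% of all genes rose. DESeq2, run without such a term, called 30 members, where 8.29% of all genes rose. Within batch 1 the difference in the mean over members was 1.02, and within batch 2 it was 1.08. Counts of calls ran from 17 to 29 when single mice were left out, where 3.81% to 9.09% of all genes rose, with 17 in the absence of old ND replicate 3 (5.42%).

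**Figure D3:**
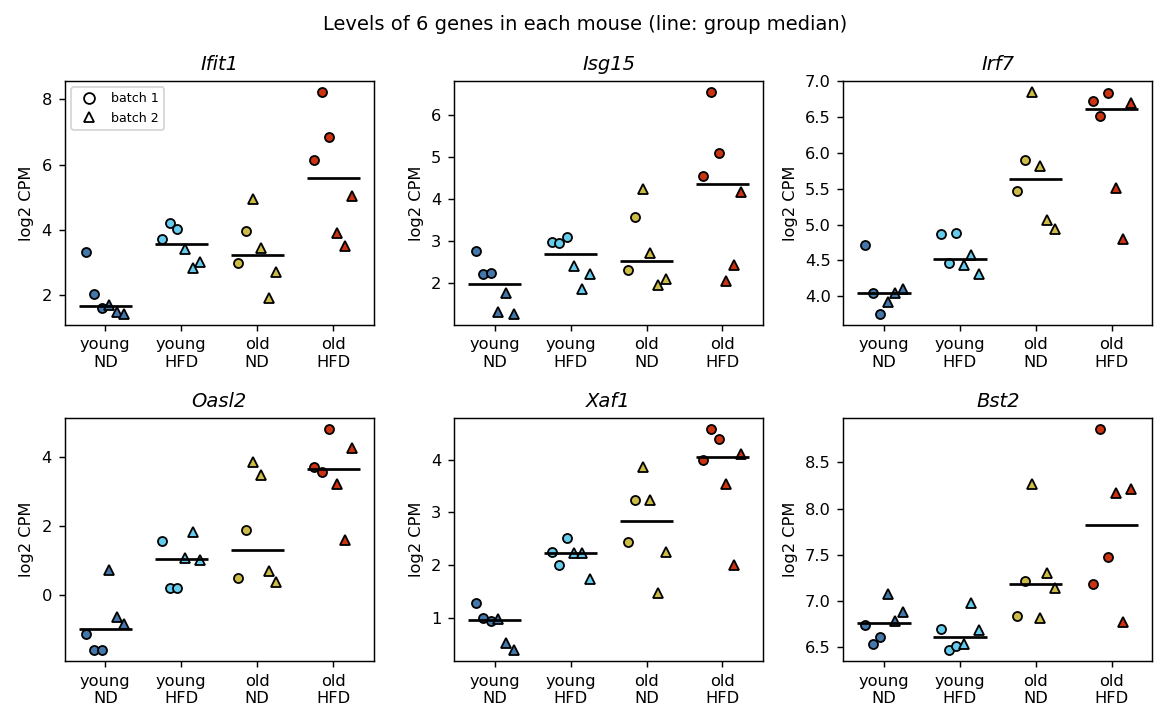
Log2 CPM (vertical axis) of Ifit1, Isg15, Irf7, Oasl2, Xaf1 and Bst2 in each mouse by group, with circles for batch 1, triangles for batch 2 and a line at the group median. Xaf1 separates young ND (0.38 to 1.29) from young HFD (1.74 to 2.51), and old HFD replicate 2 is the highest point for Ifit1, Isg15 and Bst2.

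The third comparison asked what HFD did in old mice. Only Ifit1 rose and 0 members fell in old HFD against old ND, where 1.37% of all genes tested rose and 1.64% fell, with 17 of 42 members and 2990 of all 13583 genes at an unadjusted p under 0.05. The median of the members was 0.52. The old ND mice had Ifit1 at 1.92 to 4.94 log2 CPM, with a median of 3.22, and the old HFD mice at 3.51 to 8.22, with a median of 5.58. Its log2 fold change was 2.10 (SE 0.57, adjusted p = 0.0422 in edgeR), and the groups overlapped. The call held in 6 of 24 fits that left out 1 mouse, with values from 1.53 to 2.77. In 0 members was every old HFD mouse above every old ND mouse, against 0.471% of genes.

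The next members by p-value stayed above the threshold. Usp18 gave 1.31 (SE 0.38, adjusted p = 0.0568 in edgeR), with old ND mice at 2.42 to 4.86 log2 CPM and old HFD mice at 3.50 to 6.30. Ifi27, a mitochondrial interferon-induced protein, gave 1.003 (SE 0.32, adjusted p = 0.0760), and Irf9 gave 0.41 (SE 0.13, adjusted p = 0.0777 in edgeR). PKR (Eif2ak2), which halts translation on double-stranded RNA, gave 0.49 (SE 0.16, adjusted p = 0.0851). Oasl2 gave 1.62 (SE 0.60, adjusted p = 0.121) and Isg15 gave 1.24 (SE 0.48, adjusted p = 0.138 in edgeR). Leaving out single mice gave 1.29 to 2.08 for Oasl2 and 0.73 to 1.82 for Isg15, each called in 1 of 24 fits. For Isg15 the old ND mice lay between 1.97 and 4.25 log2 CPM around a median of 2.52, and the old HFD mice between 2.06 and 6.54 around 4.36. Irf7 gave 0.42 (SE 0.30, adjusted p = 0.422), with a median of 5.64 in old ND and 6.61 in old HFD. Without single mice Irf7 gave 0.23 to 0.79. Rsad2, the antiviral enzyme viperin, gave 1.07 (adjusted p = 0.211), and Trim25, a ubiquitin ligase for RIG-I, was the 1 member below 0, at -0.14 (SE 0.16, adjusted p = 0.650 in edgeR). Rsad2 gave 0.84 to 2.07 without single mice and was called in 1 of 24 fits.

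The batches differed in this comparison. In batch 1 the mean over members was higher in old HFD by 1.16 and in batch 2 by 0.23, with 42 and 30 of the 42 members above 0 in fits of each batch alone. For Ifit1 the log2 fold change was 3.72 in batch 1 and 0.61 in batch 2, and for Isg15 it was 2.53 and 0.12. In batch 1 the 3 old HFD mice stood at a mean of 4.37 to 4.90 over the members and the 2 old ND mice at 3.12 and 3.76. In batch 2 the old ND mice spanned 2.77 to 4.61 and the old HFD mice 3.22 to 4.50. Of the 5 leukocyte markers 0 passed between these groups in edgeR, with 0 at an unadjusted p under 0.05, and their median log2 fold change was -0.28.

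Single mice decided the count of calls. Without old ND replicate 3 there were 13 calls, where 1.5% of all genes rose, without old HFD replicate 5 there were 7 (3.02%), and without old HFD replicate 4 there were 3 (1.62%). Without old HFD replicate 2 there were 0 in edgeR (0.935%), with 13 members at an unadjusted p under 0.05, while DESeq2 on all mice called 5 (4.6%). It was also 0 without old HFD replicate 6 (1.6%) and without any 1 of old ND replicates 1, 2, 4, 5 and 6 (0.231% to 1.52%). The same held without any 1 of the young mice other than young ND replicate 1 (1.07% to 1.35%). Given Ptprc as a term, 5 members passed and the median was 0.66, with 1.62% of all genes higher, and with the mean leukocyte marker level 5 passed and the median was 0.54, with 2.63% of all genes higher.

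The fourth comparison asked what differed with age on HFD. In old HFD against young HFD 18 members rose and 0 fell, where 1.82% of all genes tested rose and 0.420% fell, with a median of 1.15 and 39 of 42 above 0. All 3 genes of Isg15 conjugation rose, namely Isg15 (log2 fold change 2.01, SE 0.47, adjusted p = 0.0302), Usp18 (2.01, SE 0.38, adjusted p = 0.00874) and the ligase Herc6. Ifi27 rose by 1.92 (SE 0.32, adjusted p = 0.00496 in edgeR) and, with Oas1a, was 1 of 2 members whose old HFD mice all lay above every young HFD mouse, against 0.552% of genes. Ifi27 had 6.02 to 6.72 log2 CPM in young HFD and 7.24 to 9.58 in old HFD.

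Of the other groups 1 of 4 Ifit genes, 3 of 6 Oas genes and PKR, 3 of 8 other antiviral effectors and 2 of 4 transducers rose. Ifi44, a GTP-binding antiproliferative protein, rose by 2.98 (SE 0.59, adjusted p = 0.0135), Oas1a by 2.94 (SE 0.65, adjusted p = 0.0235) and Oasl2 by 2.92 (SE 0.61, adjusted p = 0.0171 in edgeR). Ifit1 rose by 2.54 (SE 0.54, adjusted p = 0.0197) and was the 1 Ifit gene to pass. Xaf1 rose by 1.77 (adjusted p = 0.00874), Irf7 by 1.72 (SE 0.30, adjusted p = 0.00703) and Zbp1 by 1.46 (adjusted p = 0.0419 in edgeR). Dhx58, the RIG-I-like regulator LGP2, rose by 0.96 (SE 0.24, adjusted p = 0.0370 in edgeR). In the PARP group 0 of 4 passed, with Parp14 at 0.62 (adjusted p = 0.0870). Trim25, Dtx3l and Tor3a were below 0, at -0.22, -0.21 and -0.08, and 0 of these passed.

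The count was 10 without the batch term, where 0.751% of all genes rose, and 9 when only the 12 HFD mice were fitted (0.378%). It was 8 without young HFD replicate 2 (0.527%), 4 (0.253%) or 5 (0.377%), 9 without replicate 3 (0.599%) and 10 without replicate 6 (0.449%) of that group. Among 24 fits that left out 1 mouse, Zbp1 was called in 10, Dhx58 in 14, Isg15 in 17, Oas1a in 19, Ifit1 in 21 and Oasl2 in 23, and without old HFD replicate 2 Isg15 gave 1.43 and did not pass. When Ptprc was a term 15 members passed and 1.94% of all genes rose, with a median of 0.83 over members, and with the mean leukocyte marker level 2 passed and 0.25% rose, with a median of 0.56. Of 5 leukocyte markers 0 passed in edgeR in this comparison, with 2 at an unadjusted p under 0.05, all 5 above 0 and a median log2 fold change of 1.25. Of the tested markers of B and plasma cells 1 of 2 rose (median 2.24), as did 1 of 2 of neutrophils (median 4.43). Of T cell markers 0 of 3 passed, with 2 at an unadjusted p under 0.05 and a median of 2.34. The part of these cell types in the values of the members was not tested beyond the Ptprc and leukocyte marker terms.

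The age comparisons on ND and on HFD share no mice, but their calls are not independent. Both come from 1 fit of all mice, with a shared estimate of each gene's spread and a shared batch term. Without old ND replicate 3 the count on HFD was 23 in place of 18, where 1.69% of all genes rose. Of the 23 members that rose on ND, 13 also rose on HFD (56.5%), which was 72.2% of the 18 that rose on HFD. Those were Herc6, Ifi27, Ifi44, Ifit1, Irf7, Irf9, Oas1a, Oasl2, Rtp4, Trim30a, Usp18, Xaf1 and Zbp1, from every role group except the PARP group. Over all genes, 73 of the 986 that rose on ND also rose on HFD (7.4%), or 29.6% of 247. Across the 42 members the log2 fold changes had r = 0.81, and across all 13583 genes r = 0.60. Genes are not independent replicates. The diet comparisons also share no mice but come from the same fit, and 0 members rose in both (4 and 1 calls). Over all genes 36 rose in both, 13.9% of 259 and 19.4% of 186. The r of the log2 fold changes was 0.50 across members and 0.31 across all genes.

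**Figure D4:**
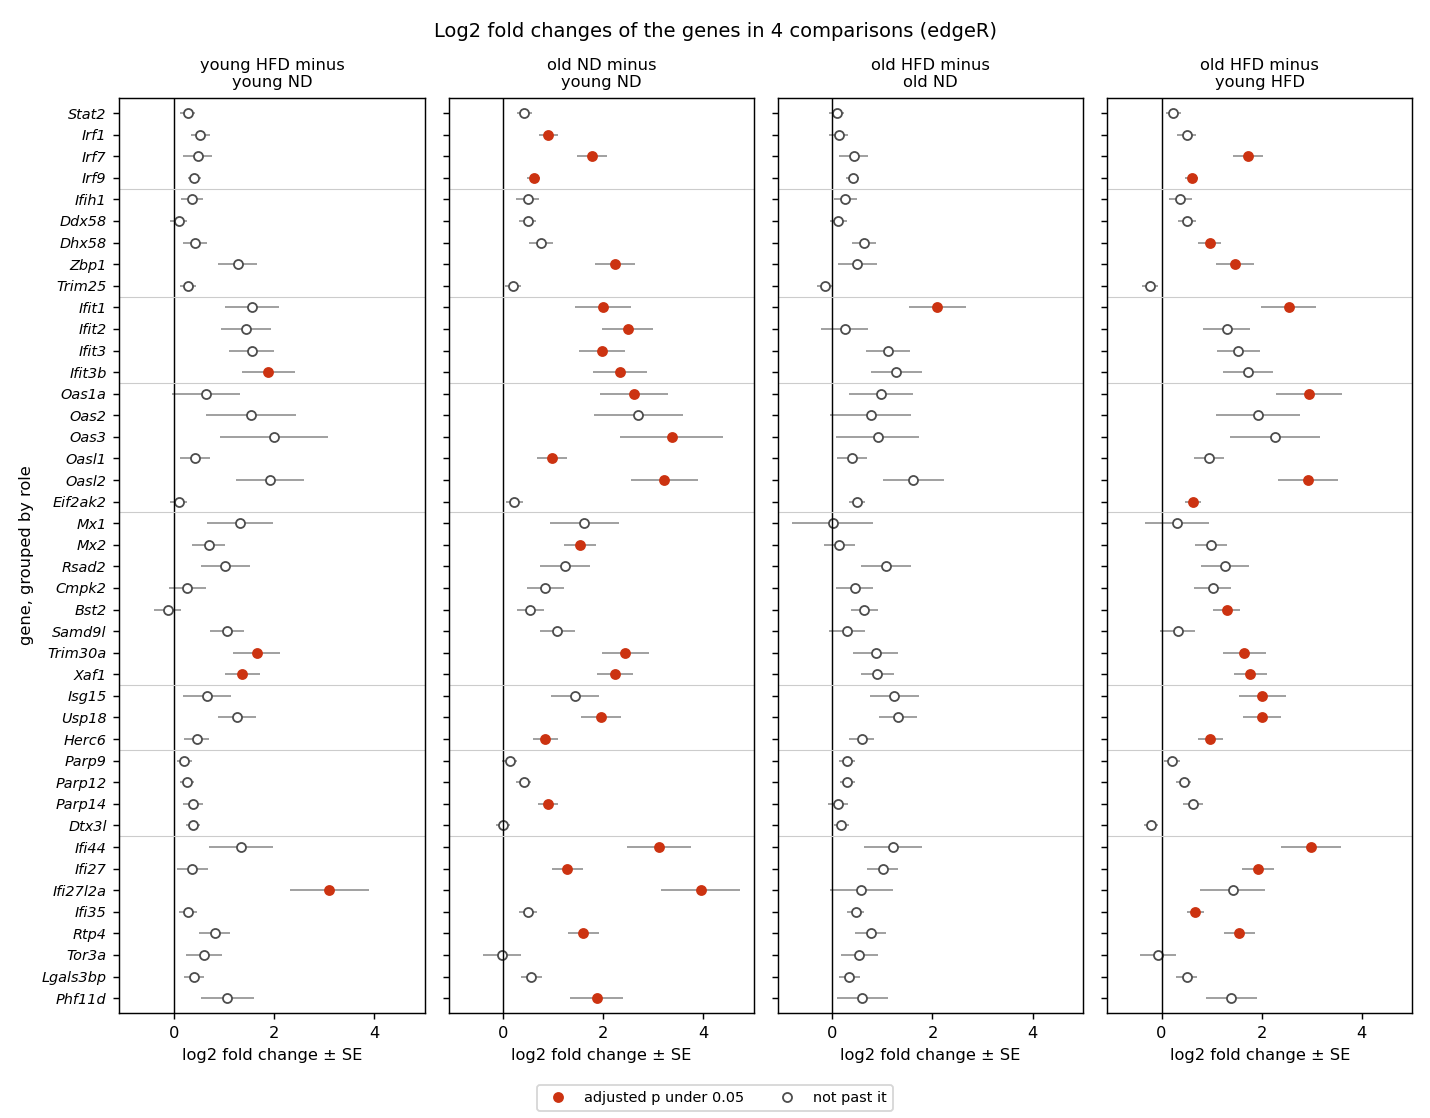
Log2 fold change with its standard error (horizontal axis) of each of the 42 tested genes (vertical axis, grouped by role) in 4 comparisons, filled where edgeR's adjusted p was under 0.05 and open otherwise. Filled points number 4, 23, 1 and 18 from left to right, all to the right of 0.

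Old HFD against young ND combines both factors and gave the widest differences. Here 38 members rose and 0 fell, where 17.3% of all genes tested rose and 12.9% fell, with a median of 1.66 and 42 of 42 above 0. For 23 members every old HFD mouse was above every young ND mouse, against 2.99% of genes. Oasl2 rose by 4.84 (SE 0.69, adjusted p = 7.78e-05), Ifi27l2a by 4.53 (SE 0.79, adjusted p = 0.000500) and Ifit1 by 4.09 (SE 0.58, adjusted p = 7.64e-05 in edgeR). Xaf1 rose by 3.14 (SE 0.36, adjusted p = 1.04e-05) and Usp18 by 3.27 (SE 0.40, adjusted p = 2.02e-05 in edgeR), which were the members with the smallest p-values. Irf7 rose by 2.196 (adjusted p = 6.30e-05), Irf9 by 1.02 (adjusted p = 3.53e-05) and Isg15 by 2.67 (adjusted p = 0.000624 in edgeR). The 4 that did not pass, named after their values were seen, were Mx1 (1.63, SE 0.66, adjusted p = 0.0646), Tor3a (0.52), Dtx3l (0.17) and Trim25 (0.07). Without single mice Mx1 gave 0.78 to 1.92 and was called in 3 of 24 fits.

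When Ptprc was a term 16 of the 42 passed, with a median of 0.94, where 2.94% of all genes rose. With the mean leukocyte marker level 8 passed, with a median of 0.78, where 1.03% rose. Leaving out single mice gave 37 to 39 calls, where 13.3% to 21.1% of all genes rose. In batch 1 alone 33 passed (4.24% of all genes) and in batch 2 alone 8 (2.4%), and the difference in the mean over members was 2.18 and 1.32.

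The age by diet interaction compared the effect of HFD between old and young mice. By edgeR 0 of 42 members passed, as did 0 of 13583 genes, of which 1247 were at an unadjusted p under 0.05, and DESeq2 also gave 0 members. At an unadjusted p under 0.05 in edgeR there was 1 member, Ifi27l2a, named after its value was seen (log2 difference -2.52, SE 0.996, adjusted p = 0.531 in edgeR). Its log2 fold change with HFD was 3.10 at the young age and 0.58 at the old, which did not pass, and without a count filter its interaction passed (adjusted p = 0.00256). The median of the members was -0.09, with 15 of 42 above 0. For the mean over members the interaction was -0.13, with 0.33 in batch 1 and -0.48 in batch 2, so its direction was not the same in the batches. All 5 leukocyte markers had an interaction below 0, with a median of -2.21 and 5 at an unadjusted p under 0.05. With Ptprc as a term the direction of the members turned, with a median of 0.36, 36 of 42 above 0, 5 at an unadjusted p under 0.05 and 0 passing in edgeR. With the mean leukocyte marker level the median was 0.21, with 32 above 0, 2 at an unadjusted p under 0.05 and 0 passing. The median also turned in some fits without such a term. It was 0.13 without old ND replicate 3 (25 of 42 above 0), 0.03 without old HFD replicate 4 and 0.01 without old HFD replicate 5. Without any 1 other mouse it stayed below 0. It was 0.29 in batch 1 alone and -0.49 in batch 2 alone, and 0.07 with limma on log2(FPKM + 1) but -0.09 with DESeq2.

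The relation to Ptprc, which encodes the pan-leukocyte surface protein Cd45, was followed mouse by mouse. Over all 24 mice, with group and batch means removed, the mean over members had Pearson's r = 0.64 and Spearman's rho = 0.67 with Ptprc, and r = 0.48 without the 2 mice farthest from the median of Ptprc. Within groups of 6, with batch means not removed, the r was -0.05 for young ND, 0.47 for young HFD, 0.88 for old ND and 0.32 for old HFD. The relation was therefore closest in old ND, where replicates 3 and 4 had both the highest Ptprc (4.34 and 4.98 log2 CPM) and the highest means (4.61 and 3.93). By this measure it was lower in old HFD, where the batches differed in level. There batch 1 mice had means of 4.37 to 4.90 at a Ptprc of 0.92 to 2.64. Batch 2 mice had means of 3.22 to 4.50 at a Ptprc of 0.39 to 3.98. Replicate 5 had the lowest mean and the lowest Ptprc of old HFD, and replicate 2 had a mean of 4.55 at a Ptprc of 0.92. No r with batch removed was taken within groups. Young ND replicates 4, 5 and 6 had Ptprc at 0.35 to 1.55 log2 CPM and means of 2.39 to 2.49.

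The members differed widely in this relation. The median r over the 42 members was 0.45, against 0.01 over all 13583 genes, and 18 members (42.9%) had r above 0.5, against 10.5% of genes. The highest were Oasl2 at 0.81, Ifi27l2a at 0.79, Ifit2 at 0.78, Oas2 at 0.74 and Stat2 at 0.72. At the other end were Ifi35 at 0.03, Dtx3l at 0.06, Parp9 at 0.16, Parp12 at 0.17, Oasl1 at 0.20, Isg15 at 0.22 and Ifit1 at 0.27. Members of 1 family stood apart in it, with Ifit2 at 0.78 and Ifit1 at 0.27, and Oasl2 at 0.81 and Oasl1 at 0.20. These values are descriptions over 24 mice that share libraries, and no test was made of the differences between them.

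**Figure D5:**
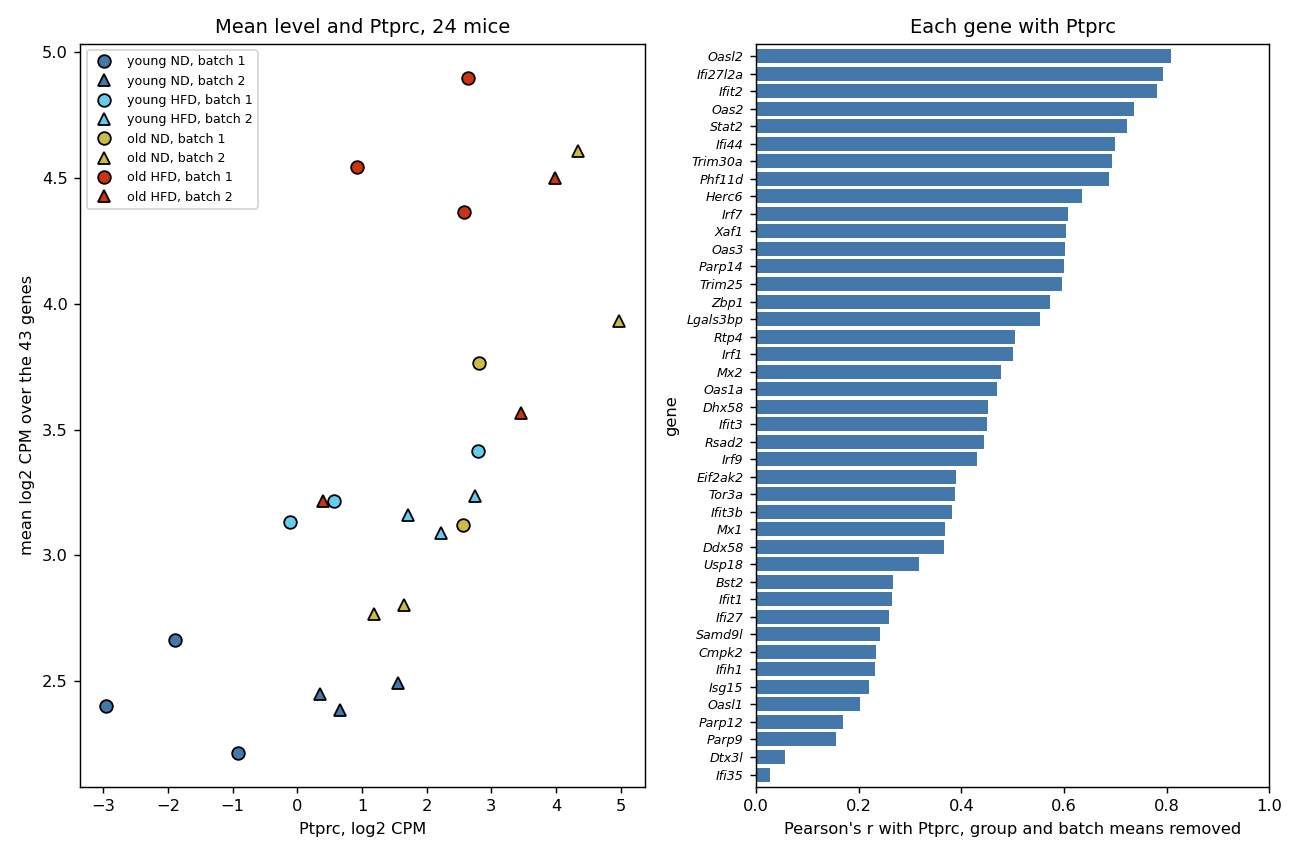
Left, the mean log2 CPM over the 43 genes (vertical axis) against Ptprc in log2 CPM (horizontal axis) for the 24 mice, coloured by group with circles for batch 1 and triangles for batch 2. Right, Pearson's r of each of the 42 tested genes with Ptprc over 24 mice with group and batch means removed, from 0.81 for Oasl2 to 0.03 for Ifi35.

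With Ptprc as a term of the model, the differences between old HFD and young ND moved to unequal extents. Ifit1 gave 3.67 (SE 0.71, adjusted p = 0.00642 in edgeR) where it gave 4.09 without the term, and Isg15 gave 2.31 (SE 0.62, adjusted p = 0.0339) where it gave 2.67. Ifi27l2a gave 1.97 (SE 0.56, adjusted p = 0.0403 in edgeR) where it gave 4.53. Between old HFD and old ND, whose Ptprc levels overlapped, Ifit1 gave 2.195 (SE 0.57, adjusted p = 0.0333) and Xaf1 1.03 (SE 0.29, adjusted p = 0.0460 in edgeR).

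Of 21 interferon genes in the table, 18 had 0 counts in all mice, and Ifnb1, Ifnk and Ifng had 3, 11 and 9 counts in total over 24 mice, so none could be tested. Ifnar1 was at 4.57 to 5.31 log2 CPM over all mice and Ifnar2 at 5.19 to 5.84, and the groups overlapped for both. Of 5 tested interferon receptor genes 1 rose in old ND against young ND, which was Il10rb, a chain of the lambda interferon and interleukin 10 receptors (log2 fold change 1.43, SE 0.33, adjusted p = 0.00951 in edgeR), and it also rose in old HFD against young ND (1.38, adjusted p = 0.00428), as did 2 of the 5 receptor genes in all, where 7.26% and 17.3% of all genes rose. Of 3 receptor kinases, Tyk2 fell in old HFD against old ND (log2 fold change -0.60, SE 0.12, adjusted p = 0.00805), young HFD (-0.45, adjusted p = 0.0417) and young ND (-0.57, adjusted p = 0.00122 in edgeR), where 1.64%, 0.420% and 12.9% of all genes fell. Tyk2 had 3.46 to 4.37 log2 CPM in old HFD and 4.29 to 4.70 in old ND, a direction opposite to that of the members in these comparisons. Its call against young HFD held in 9 of 24 fits that left out 1 mouse.

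Among 6 tested inhibitors, Socs3, which blocks cytokine receptor kinases, rose in old ND against young ND (1.86, SE 0.47, adjusted p = 0.0157) and fell in old HFD against old ND (-1.79, SE 0.48, adjusted p = 0.0396 in edgeR). It was the only 1 of the 6 called in these comparisons, where 7.26% of all genes rose and 1.64% fell. In old HFD against young ND 1 of the 6 rose and 1 fell, where 17.3% of all genes rose and 12.9% fell. Further values here are those of Socs3 in the first 2 comparisons. Without old ND replicate 4 its log2 fold changes were 0.99 and -0.94 and neither passed, and over 24 fits that left out 1 mouse the calls held in 23 and 16. Its old ND levels ran from 3.12 to 6.98 log2 CPM and its old HFD levels from 2.51 to 3.87. Among 10 tested upstream sensors and adaptors, Tmem173, which encodes the DNA-sensing adaptor Sting, rose in young HFD (2.55, SE 0.69, adjusted p = 0.0419), old ND (3.65, SE 0.69, adjusted p = 0.00348) and old HFD (3.33, SE 0.69, adjusted p = 0.00157 in edgeR), each against young ND. Tmem173 was near the detection limit in young ND, at -2.96 to -1.003 log2 CPM, and reached 2.90 in old ND. Ptprc had log2 fold changes of 2.23, 3.53 and 3.01 in the same 3 comparisons (edgeR, adjusted p = 0.0773 in the first). With Ptprc as a term the log2 fold changes of Tmem173 were 0.96, 1.30 and 1.48, with the leukocyte marker mean they were 1.29, 1.36 and 1.12, and none of these 6 values passed. The call of Tmem173 in young HFD held in 14 of 24 fits that left out 1 mouse. In old ND against young ND 3 of the 10 rose and 0 fell, where 7.26% of all genes rose and 1.24% fell, in old HFD against young ND 3 rose and 2 fell, where 17.3% of all genes rose and 12.9% fell, and in old HFD against old ND 0 rose and 0 fell in edgeR, with 3 at an unadjusted p under 0.05, where the shares were 1.37% and 1.64%.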

How the data were processed

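The values were whole-number read counts per gene that the authors deposited, made from polyA RNA-seq of hepatocytes. The submitters' processing notes name FastQC 0.11.8, STAR 2.7.3a and HTSeq 0.11.2 with mm10. Handling of strand is not given in the sources used here. FPKM values, which the authors computed and adjusted between batches, served for levels between genes and as an alternative. All 24 mice were assigned to groups and batches from the sample labels, and 0 columns had no matching sample. Counts were analysed with edgeR 4.0.16 in R 4.3.3, with TMM normalization, the filterByExpr filter by group, 1 model of group and batch, and quasi-likelihood tests with Benjamini-Hochberg adjustment over all 13583 genes in each of 6 comparisons. Log2 CPM used a prior count of 2. Replicates were separate mice. Total counts of 9200332 to 22185069 per mouse limit the precision of scarce genes. Counting error alone is a lower limit.

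Members with values in the text were, in each role group, those with the smallest adjusted p and with the fold change of largest size in a comparison. Those against the median direction, Ifit1, Isg15 and Irf7 were added. So were the close or neighbouring pairs Ifit3 and Ifit3b, Mx1 and Mx2, and Parp9 and Dtx3l. Pathway genes came from lists of ligands, receptors, kinases, inhibitors and upstream sensors. The members, lists and rules were chosen with earlier results of these data known. Same-numbered mice are different animals, and their deviations did not pair. Alternatives were DESeq2 1.42.0, limma 3.58.1 on log2(FPKM + 1) and log2(FPKM + 0.1), RLE normalization, no count filter, no batch term, fewer mice, single batches, a replicate block, Ptprc or leukocyte marker terms, and leaving out each mouse. Positions are from GENCODE M21 (GRCm38) and promoters from RefSeq (GRCm38.p6). The bases after the start occurred in a GENCODE transcript of the gene for 23 of 31 members. Figures used Python with matplotlib 3.10.9.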

Additional observations from a re-analysis of the deposited data

Results flagged for a closer look

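In young ND, replicate 1 lay far above the other 5 mice for 2 of the genes whose values are given by mouse. Its Ifit1 level was 3.31 log2 CPM, where the next mouse had 2.03 and the lowest 1.43. Its Irf7 level was 4.71 log2 CPM, where the next mouse had 4.09 and the lowest 3.76. The gap to the nearest mouse was 0.680 and 0.646 of the group's whole range, above Dixon's limit for 6 samples. That mouse had the highest level in its group for 23 of the 42 members and a Ptprc of -1.89 log2 CPM. In all, 92 sets of 6 values were looked at, of which about 1 in 20 would stand out by chance.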

How the results depend on the processing

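Counts of members called are given in the order young HFD against young ND, old ND against young ND, old HFD against old ND, old HFD against young HFD, old HFD against young ND, and the interaction, where edgeR gave 4, 23, 1, 18, 38 and 0. The shares of all genes that rose, in the same order, were 1.91%, 7.26%, 1.37%, 1.82%, 17.3% and 0%. DESeq2 gave 11, 30, 5, 23, 39 and 0 members (5.63%, 8.29%, 4.6%, 4.17%, 18.2% and 0.0124% of all genes). RLE normalization gave 4, 25, 1, 18, 38 and 0 (2.04%, 7.58%, 1.77%, 2%, 19.5% and 0%). Without a count filter they were 16, 32, 13, 29, 38 and 1 (3.36%, 5.47%, 1.67%, 2.71%, 9.07% and 0.309%), where the interaction call was lower, as were 487 of 32336 genes while 100 were higher. Without a batch term they were 0, 18, 2, 10, 35 and 0 (0.633%, 3.98%, 0.913%, 0.751%, 12.5% and 0%). With only the mice compared they were 30, 22, 0, 9 and 35 (10.4%, 7.31%, 0.0318%, 0.378% and 10.7%). Batch 1 alone gave 1, 4, 0, 7, 33 and 0 (0.701%, 0.679%, 0.0295%, 0.0665%, 4.24% and 0%) and batch 2 alone 0, 0, 0, 0, 8 and 0 (0.0281%, 0.014%, 0.0281%, 0%, 2.4% and 0%), with fewer mice. Ptprc as a term gave 0, 0, 5, 15, 16 and 0, and the leukocyte marker mean 0, 0, 5, 2, 8 and 0, with shares given beside each comparison. limma on log2(FPKM + 1) gave 0, 3, 4, 14, 37 and 0 (0.909%, 0.73%, 1.15%, 0.601%, 8.24% and 0%). With 0.1 added it gave 1, 15, 6, 12, 37 and 0 (1.27%, 2.59%, 1.17%, 0.617%, 9.41% and 0%), and with 1 added and no filter 0, 1, 1, 4, 36 and 0 (0.293%, 0.122%, 0.263%, 0.0991%, 3.57% and 0%). Other causes of these shifts were not tested.

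With a block for replicate number and no batch term the counts were 3, 20, 9, 13, 37 and 0 (1.07%, 8.13%, 1.55%, 0.758%, 13.7% and 0.00736% of all genes). Same-numbered mice share only a number. Their deviations from group means had a mean r of 0.18, or -0.05 with batch removed, 21 of 36 pairs were above 0.1, and 6 mice correlated best with their own number.

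Leaving out 1 mouse at a time gave 0 to 9, 17 to 29, 0 to 13, 8 to 23, 37 to 39 and 0 to 0 members called. The shares of all genes that rose moved as well. In the same order they ran from 0.504% to 3.68%, 3.81% to 9.09%, 0.231% to 3.35%, 0.253% to 3.91%, 13.3% to 21.1% and 0% to 0.00722%. In young HFD against young ND the count was 9 without old ND replicate 3 (1.81% of all genes) and 8 without old HFD replicate 2 (3.68%). It was 2 without young ND replicate 6, old ND replicate 1 or 2, or old HFD replicate 1 or 6 (1.11% to 1.78%). It was 0 without any 1 of young ND replicates 1 to 5 and young HFD replicates 1, 3, 5 and 6 (0.504% to 1.21%). The mean over members differed by 0.70 to 0.81, 0.87 to 1.23, 0.52 to 0.88, 0.85 to 1.16, 1.62 to 1.93 and -0.25 to 0.10. As log2(FPKM + 1) its differences were 0.24, 0.38 and 0.74 in young HFD, old ND and old HFD against young ND, and in batch 1 alone old HFD against old ND gave 1.16.

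With Ptprc as a term 30 of 42 members were above 0 in young HFD against young ND, where 41 were without it, and 36 were in the interaction, where 15 were. In batch 2 alone 30 were above 0 in old HFD against old ND and 3 in the interaction. Among the members and comparisons given by name, 6 members turned direction. With Ptprc as a term, in young HFD against young ND, Parp14 gave -0.010 and Irf7 -0.13, and with the leukocyte mean Irf7 gave -0.034. With the leukocyte mean Oas3 gave -0.43 in old ND against young ND. There Tor3a gave 0.015 with DESeq2, 0.019 with RLE, 0.046 without batch and 0.45 in batch 2, and -0.35 to 0.16 without single mice. Dtx3l gave 0.023, 0.025 and 0.057 with DESeq2, RLE and batch 2, and -0.060 to 0.063 without single mice. In batch 1 Trim25 gave 0.014 in old HFD against old ND and Tor3a 0.11 against young HFD, where it gave -0.22 to 0.10 without single mice. In old HFD against young ND, with Ptprc and the leukocyte mean, Tor3a gave -0.030 and -0.36 and Trim25 -0.32 and -0.27. In batch 2 Trim25 gave -0.30 and Dtx3l -0.038, and without single mice Trim25 gave -0.013 to 0.18. Of the other log2 fold changes under these alternatives, 823 kept their direction and side of the threshold, 217 lost significance and 62 gained it. Scarce genes such as Oas3 and Mx1 are limited by depth.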
